A study of Mus musculus with 4 samples.

Results

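The genes described here encode the ligands, receptors, Smads, secreted antagonists and Id targets of Nodal, bone morphogenetic protein (BMP) and transforming growth factor-β (TGF-β) signalling. They were taken by symbol from a list of 51 names, and 50 of them had a row among the 24637 genes of the deposited table; no row carried the name *Gdf1*. Messenger RNA had been sequenced from 4 cultures of mouse embryonic stem cells (ESCs) that were differentiated towards cardiomyocytes, 2 of them WT and 2 of them *Taf4a*-/-. *Taf4a* encodes a subunit of TFIID, the general transcription factor that recognises core promoters, and the question of the comparison was which genes depend on it in such cultures. All 4 ESC lines had been derived from blastocysts of crosses between C57Bl6J *Taf4a*+/- mice, and the mutant lines carried on both chromosomes a null allele from which exons had been deleted. Cells of both genotypes were kept on feeder fibroblasts, grown as embryoid bodies in suspension for 5 days and then plated on gelatin for 9 days, with no other treatment. The WT and mutant replicates were independent lines. Each has a single library, so differences of line, culture and library preparation cannot be told apart in a spread between replicates.

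Ligands of this family bind pairs of type I and type II serine/threonine kinase receptors. Nodal, activins and TGF-βs signal through Smad2 and Smad3, and BMPs and several growth and differentiation factors (GDFs) through Smad1, Smad5 and Smad9; both branches use Smad4, while Smad6 and Smad7 inhibit them. Nodal signalling is active in pluripotent cells and patterns the early mesoderm and endoderm, BMPs are needed for the cardiac mesoderm, and TGF-βs promote matrix production and the cushions of the heart valves.

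Between 21732746 and 27733034 reads per library had been counted on genes. The count of *Taf4a* itself went against the labels: WT replicates 1 and 2 had 889 and 678 normalized counts, and both mutant-labelled replicates had more, 1722 and 1799. The gene-level count does not separate the deleted exons, so the mutant samples are named by their labels throughout. *Xist*, which is transcribed from the inactive X chromosome, had 6.14 and 7.27 normalized counts in WT and 217 and 6470.0 in those labelled *Taf4a*-/-, and the Y-linked *Eif2s3y* was listed at 0 in replicate 2 of both genotypes and at 1688 and 309 normalized counts in the replicates 1 of WT and mutant labels. Lists of cell type markers were read in the same way, with the test described below. All 15 cardiomyocyte markers fell in the libraries labelled *Taf4a*-/-, and their summed level went from 38090 and 37009 to 4016 and 3976 normalized counts. All 12 macrophage markers fell, from a sum of 13874 and 17793 to 267 and 421, and *C1qa* was listed at 0 in both of these libraries. The 11 tested markers of visceral endoderm and liver also fell, from a summed 96604 and 81712 to 1837 and 1155, with *Alb* listed at 0 in both. Of 12 fibroblast and mesenchyme markers 8 fell and 1 rose, with sums of 439982 and 608917 in WT and 55112 and 69077 in those labelled *Taf4a*-/-. Of 12 markers of undifferentiated stem cells 10 rose and none fell, with sums of 7397 and 4087 in WT and 20134 and 21776 in those labelled *Taf4a*-/-. None of the 10 endothelial markers was called, at sums of 13209 and 8683 against 6784 and 11715; 3 of them had an unadjusted p under 0.05. *Tdgf1*, *Col1a1*, *Dcn* and *Eng* stand both in these lists and in the list of further pathway genes used below.

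The 250 bases upstream of the annotated start are shown for 5 genes whose RNA moved together or in opposite directions: *Nodal* and the *Lefty* genes, which lie in one feedback loop, and *Id1* and *Id2*, which are both known BMP targets. They were read from NCBIM37, the build of the deposited counts, 5′ to 3′ on the strand of the gene. Capitals mark matches on either strand. The Smad box searched for was GTCTG, which appears as its reverse complement where the match lies on the opposite strand. The other motifs were AATNNACA, which FoxH1 recognises, and the palindrome GGCGCC, which is bound by the Smads of the BMP branch.
*Lefty1*, chr1:182864903-182865152, plus strand: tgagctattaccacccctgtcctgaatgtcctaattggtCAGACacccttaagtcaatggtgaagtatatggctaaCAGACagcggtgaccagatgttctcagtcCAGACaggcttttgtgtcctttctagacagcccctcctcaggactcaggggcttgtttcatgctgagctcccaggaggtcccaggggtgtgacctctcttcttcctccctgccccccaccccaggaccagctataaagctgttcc
*Lefty2*, chr1:182822989-182823238, plus strand: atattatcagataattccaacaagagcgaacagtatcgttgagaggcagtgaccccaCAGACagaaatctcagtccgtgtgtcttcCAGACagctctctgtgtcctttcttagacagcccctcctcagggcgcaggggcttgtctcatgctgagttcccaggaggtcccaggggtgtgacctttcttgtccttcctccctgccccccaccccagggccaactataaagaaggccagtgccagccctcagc
*Nodal*, chr10:60880470-60880719, plus strand: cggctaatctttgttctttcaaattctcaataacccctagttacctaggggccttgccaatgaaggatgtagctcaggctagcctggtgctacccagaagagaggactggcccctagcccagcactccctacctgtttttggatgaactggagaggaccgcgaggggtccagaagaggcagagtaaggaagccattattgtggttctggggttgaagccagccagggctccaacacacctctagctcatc
*Id1*, chr2:152561737-152561986, plus strand: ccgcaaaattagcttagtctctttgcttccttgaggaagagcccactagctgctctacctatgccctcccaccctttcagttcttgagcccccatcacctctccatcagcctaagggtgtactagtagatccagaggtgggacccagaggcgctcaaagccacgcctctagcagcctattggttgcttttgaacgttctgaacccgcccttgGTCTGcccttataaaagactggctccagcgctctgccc
*Id2*, chr12:25780958-25781207, minus strand: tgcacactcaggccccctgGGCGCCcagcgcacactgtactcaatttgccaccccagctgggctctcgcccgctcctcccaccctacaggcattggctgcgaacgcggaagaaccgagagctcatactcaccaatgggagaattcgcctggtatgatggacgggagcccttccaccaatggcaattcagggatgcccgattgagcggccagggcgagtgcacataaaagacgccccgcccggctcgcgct
The window of *Lefty1* held 3 matches to the Smad box and that of *Lefty2* held 2, and no marked motifs overlapped. Both windows also share a run of 27 bases that was not part of the search, tcccaggaggtcccaggggtgtgacct, which begins 77 bases before the start of *Lefty1* and 95 bases before that of *Lefty2*. None of the motifs occurred in the window of *Nodal*. *Id1* had 1 Smad box and *Id2* had 1 GGCGCC. These matches are common: GTCTG was present in 41.4% of 18454 such windows over protein-coding genes, AATNNACA in 8.03% and GGCGCC in 13.2%. Among the windows of the 50 genes of the list, 21 held GTCTG, 2 held AATNNACA and 11 held GGCGCC.

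A total of 49 of the 50 genes reached the minimum mean of 10 normalized counts and could be tested. At a Benjamini-Hochberg adjusted p under 0.05 from limma, over all 16926 genes tested, 6 of the 49 rose and 12 fell between WT and the libraries labelled *Taf4a*-/-. Among all genes 28.6% were called, 11.3% as higher and 17.3% as lower, against 36.7%, 12.2% and 24.5% of the signalling genes. The genotypes did not overlap in 36 of the 49, higher for 14 and lower for 22, where 71.1% of all genes did not overlap, 34.5% being higher and 36.6% lower. The median difference of the signalling genes was -0.27 on the log2 scale, and that of all genes -0.01. Of the 11 genes in the Nodal, activin and TGF-β ligand group, which holds the *Lefty* antagonists, 8 were called, 4 in each direction. In the BMP and GDF ligand group, which holds the protease gene *Bmp1*, 2 of 10 were called. So were 2 of 10 receptors, 2 of 8 Smads, 2 of 6 antagonists and matrix regulators and 2 of 4 *Id* genes. In such cultures, fewer cells of one type and less RNA per cell cannot be told apart. Differences are given as log2 of the libraries labelled *Taf4a*-/- over WT, computed on normalized counts plus 1, a scale on which changes of genes with few reads look smaller than they are.

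**Figure D1:**
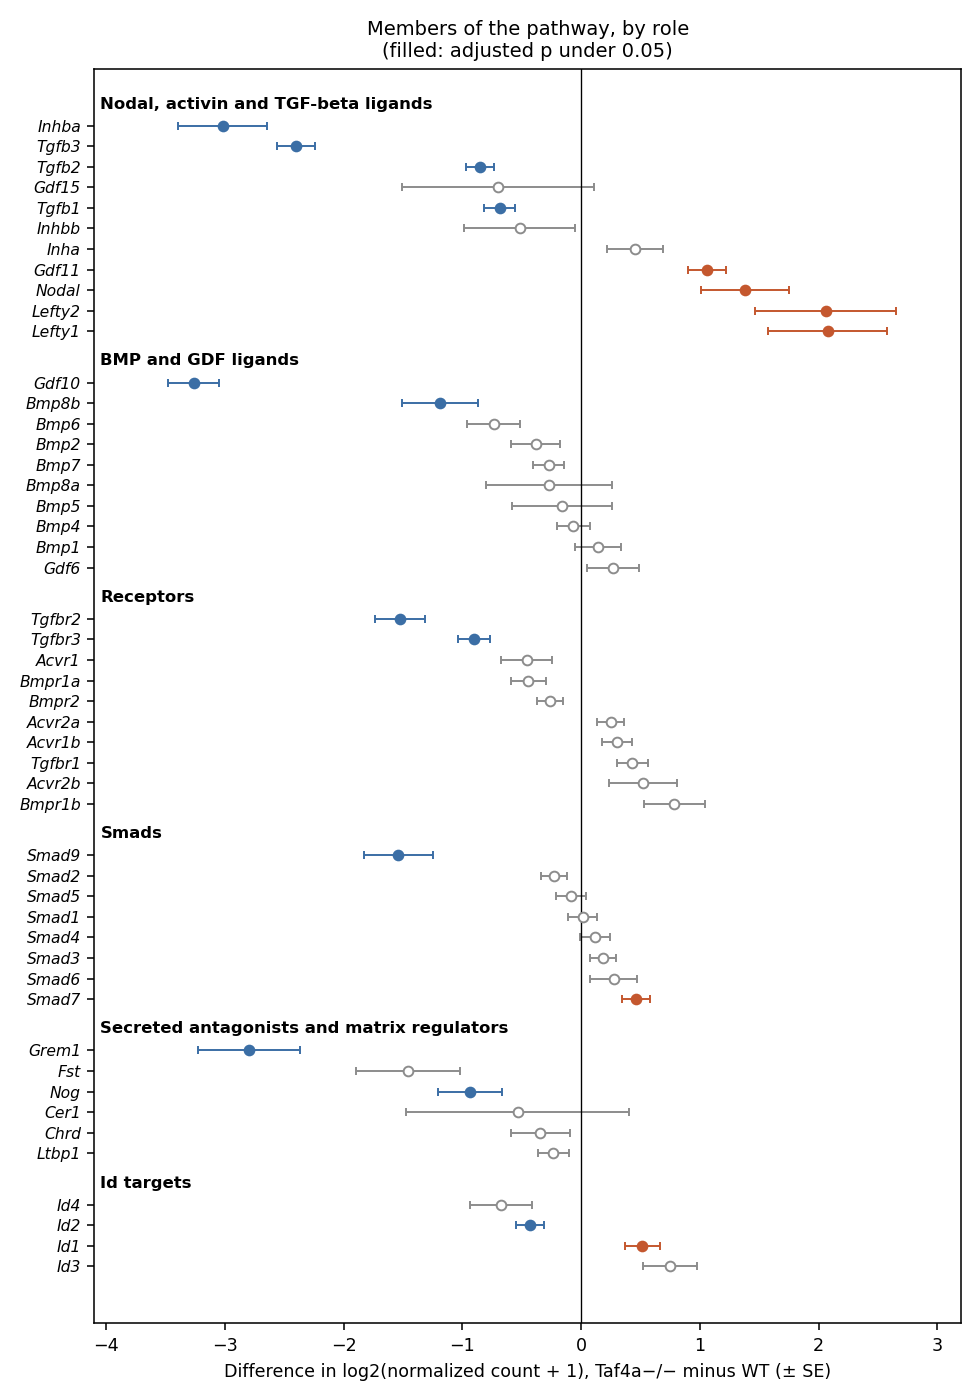
Difference between the libraries labelled *Taf4a*-/- and WT for the 49 tested genes, grouped by role, as the fitted log2 difference (horizontal axis) with bars of 1 standard error. Filled points passed an adjusted p of 0.05: 6 lie to the right of 0 and 12 to the left, from *Lefty1* at 2.08 to *Gdf10* at -3.26.

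*Nodal*, the ligand that patterns the early embryo, and its feedback antagonists *Lefty1* and *Lefty2* were higher in the libraries labelled *Taf4a*-/-, between 2.40-fold and 3.62-fold by group mean. In WT replicates 1 and 2, *Nodal* had 359 and 158 normalized counts, and in those labelled *Taf4a*-/- it had 623 and 618. Both mutant libraries were above both WT libraries, and the WT pair was far more spread than the mutant pair. The log2 difference was 1.38 (SE 0.37, adjusted p = 0.0388 from limma). *Lefty1* had 284 and 89.4 normalized counts in WT and 690.1 and 662 in those labelled *Taf4a*-/-, a log2 difference of 2.08 (SE 0.50, adjusted p = 0.0285). *Lefty2* had 424 and 106 in WT and 787 and 1003 in those labelled *Taf4a*-/-, a log2 difference of 2.06 (SE 0.59, adjusted p = 0.0468). For all 3 genes the genotypes did not overlap, where 71.1% of all tested genes did not overlap. WT replicate 1 was the higher of the WT libraries, by 2.28-fold for *Nodal*, 3.18-fold for *Lefty1* and 4.00-fold for *Lefty2*. The summed stem cell markers were likewise 1.81-fold higher in WT replicate 1 than in WT replicate 2 and were 3.65-fold higher in those labelled *Taf4a*-/- than in WT by mean; their part in the differences of *Nodal* and the *Lefty* genes was not tested. The *Lefty* genes are close paralogues: 17.9% of the 50-base windows of the *Lefty1* transcripts also occur in those of *Lefty2*, so some of their reads may have been lost or split in counting.

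These differences moved with the WT library left out. Without WT replicate 1 the log2 differences were 1.97, 2.91 and 3.06 for *Nodal*, *Lefty1* and *Lefty2*, and without WT replicate 2 they were 0.79, 1.25 and 1.06. *Lefty1* stayed called whichever library was left out, whereas *Nodal* was not called without replicate 1 or replicate 2 labelled *Taf4a*-/- (adjusted p = 0.0528 and 0.0538), and *Lefty2* not without WT replicate 2 (0.0535) or the replicate 2 labelled *Taf4a*-/- (0.0592). With no variance trend in the fit none of the 3 was called, at adjusted p of 0.106, 0.0900 and 0.126.

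**Figure D2:**
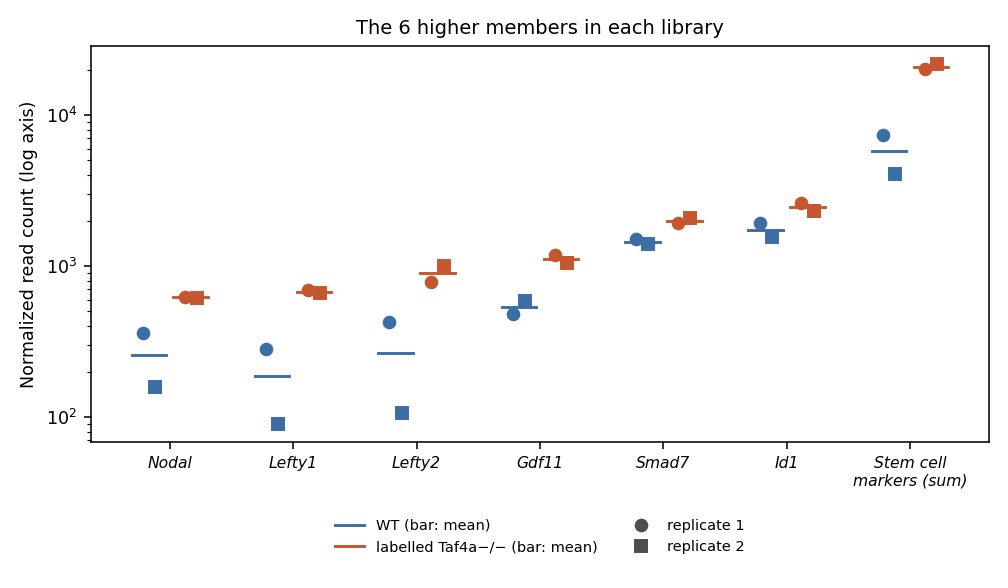
Normalized counts of the 6 genes called higher, and the sum of the 12 stem cell markers, by library (vertical, log axis), with circles for replicate 1 and squares for replicate 2, 2 points for WT and 2 for those labelled *Taf4a*-/- and a line at each group mean. The mutant points lie above the WT points for every gene, and the WT points of *Nodal*, *Lefty1* and *Lefty2* are the most spread.

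The 3 TGF-β genes, whose products drive matrix synthesis and smooth muscle differentiation, were all lower in the libraries labelled *Taf4a*-/-. *Tgfb3* had 1661 and 1989 normalized counts in WT and 370.0 and 319 in those labelled *Taf4a*-/-. This was a 5.30-fold lower mean, with a log2 difference of -2.40 (SE 0.16, adjusted p = 0.00102 from limma). *Tgfb2*, the isoform most tied to heart valve and outflow tract formation, had 3435 and 3407 in WT and 1790.4 and 2015 in those labelled *Taf4a*-/-, a log2 difference of -0.85 (SE 0.12, adjusted p = 0.00585). *Tgfb1* had 1710.5 and 1986 in WT and 1127 and 1162 in those labelled *Taf4a*-/-, a log2 difference of -0.69 (SE 0.13, adjusted p = 0.0143). Replicates lay close together and the genotypes apart for each of the 3, where the genotypes of 71.1% of all tested genes lay apart. The difference was largest for *Tgfb3*. Leaving out a library ended the call of *Tgfb1* only, without replicate 1 or 2 labelled *Taf4a*-/- (adjusted p = 0.0798 and 0.0636), and so did a fit with no variance trend (0.0576). The markers of 4 other cell types were lower in the same libraries, their summed levels standing at 10.6% of WT by mean for cardiomyocytes, 2.17% for macrophages, 1.68% for visceral endoderm and liver and 11.8% for fibroblasts and mesenchyme. Their part in the falls of the TGF-β genes, and of the other genes called lower, was not tested.

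Of the inhibin and activin subunits, *Inhba*, which encodes the βA chain of activin A, was the one that changed. It had 94.7 and 113 normalized counts in WT and 9.79 and 14.4 in those labelled *Taf4a*-/-, which is 8.60-fold lower by mean (log2 difference -3.02, SE 0.37, adjusted p = 0.00412 from limma). The βB chain gene *Inhbb* had log2 -0.52 (adjusted p = 0.436) and the inhibin α chain gene *Inha* 0.46 (adjusted p = 0.193), so neither passed the test, although *Inha* was separate between genotypes and just passed with quantile normalization, at a log2 difference of 0.78. *Gdf11*, a ligand that signals through activin receptors and patterns the axis, was higher in the libraries labelled *Taf4a*-/-: it had 481 and 589 normalized counts in WT and 1179.6 and 1051 in those labelled *Taf4a*-/- (log2 difference 1.06, SE 0.16, adjusted p = 0.00738). It was the 1 gene of the 6 called higher that stayed called under each of the 14 alternative settings. *Gdf15*, a stress-induced member of the family, was near the lower limit of detection and overlapped between genotypes (log2 difference -0.70, SE 0.81, adjusted p = 0.543).

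**Figure D3:**
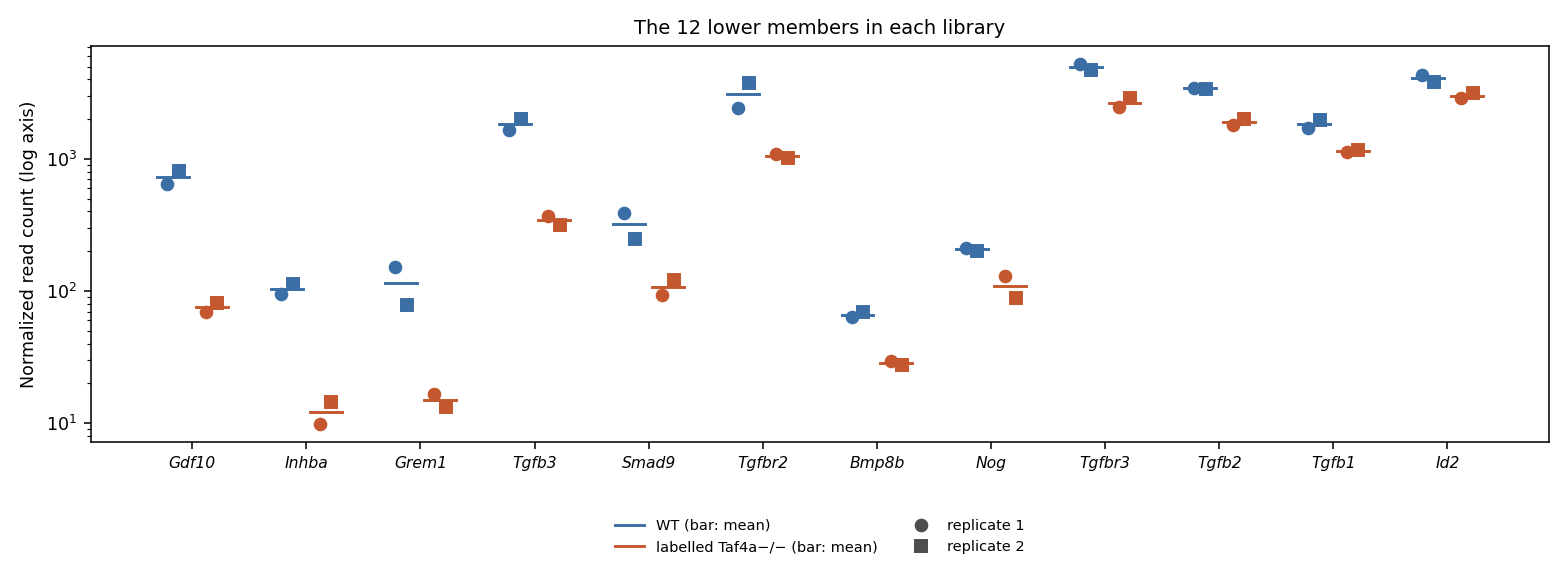
Normalized counts of the 12 genes called lower, by library (vertical, log axis), with circles for replicate 1 and squares for replicate 2, 2 points for WT and 2 for those labelled *Taf4a*-/- and a line at each group mean. Mutant points lie below WT points for every gene, and the gap is widest for *Gdf10*, *Inhba*, *Grem1* and *Tgfb3*.

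In the group of BMP and GDF ligands, which was listed with the protease gene *Bmp1*, 2 of 10 tested genes fell and none rose. Those calls are 20% of the group, beside 28.6% called among all tested genes. *Gdf10*, also known as *Bmp3b*, had 649.6 and 815 normalized counts in WT and 69.5 and 80.7 in those labelled *Taf4a*-/-, a 9.75-fold lower mean and the most negative log2 difference of the 49 genes (-3.26, SE 0.22, adjusted p = 0.00102 from limma). *Bmp8b*, a BMP made by germ cells and by the extraembryonic ectoderm, had 63.1 and 69.6 in WT and 29.4 and 27.6 in those labelled *Taf4a*-/- (log2 difference -1.19, SE 0.32, adjusted p = 0.0387). Its call was lost without any 1 of the 4 libraries (adjusted p from 0.0680 to 0.154), and 7.30% of its 50-base windows also occur in *Bmp8a*. The principal cardiogenic BMPs did not pass the test. *Bmp2* and *Bmp4*, which induce the cardiac mesoderm, had log2 differences of -0.38 (SE 0.21, adjusted p = 0.210) and -0.07 (SE 0.14, adjusted p = 0.745), and *Bmp7* had -0.27 (SE 0.13, adjusted p = 0.170). *Bmp6*, also an iron regulator made by endothelium, was just outside the threshold at -0.74 (SE 0.23, adjusted p = 0.0548), with separate genotypes. *Bmp1*, which is not a ligand but a metalloproteinase that cleaves procollagen and chordin, had 0.14 (adjusted p = 0.621), and *Gdf6*, a factor of joint and eye development, had 0.27 (adjusted p = 0.389). *Bmp5* and *Bmp8a* had -0.16 and -0.27, overlapped between genotypes, and turned to 0.10 and 0.037 with quantile normalization. *Bmp5* is singled out after its values were seen: it stood at 423 normalized counts in one WT library (replicate 1) and at 170.4 in the other, on either side of the 217 and 264 of those labelled *Taf4a*-/-, and 46.7% of its exons overlap a gene on the other strand, which unstranded reads cannot tell apart.

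*Gdf5*, a joint-forming ligand, was the 1 gene with a row that was too low to test. It was listed at 0 in both WT libraries and had 12.7 and 4.42 normalized counts in those labelled *Taf4a*-/-, which is at least 2.86-fold higher by mean when WT is put at a floor of 3 reads per library. The floor covers counting error only, and 40.3% of the exons of *Gdf5* overlap a gene on the other strand.

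Of the 10 receptors 2 fell and none rose, and both are receptors for TGF-β. *Tgfbr2*, the type II receptor that binds TGF-β and starts the signal, had 2438 and 3737 normalized counts in WT and 1079.7 and 1015 in those labelled *Taf4a*-/- (2.95-fold lower by mean, log2 difference -1.53, SE 0.21, adjusted p = 0.00560 from limma). *Tgfbr3*, or betaglycan, a co-receptor that presents TGF-β2 and also binds inhibin, had 5228 and 4745 in WT and 2459 and 2884 in those labelled *Taf4a*-/- (log2 difference -0.90, SE 0.13, adjusted p = 0.00673). Their calls held whichever library was left out. *Tgfbr1*, the type I partner of *Tgfbr2*, had a log2 difference of the other sign, 0.43 (SE 0.13), and was just outside the threshold (adjusted p = 0.0571); it passed with equal library totals and with voom, at 0.0474 in each. The genotypes were separate for all 10 receptors, 5 in each direction, where 71.1% of all tested genes were separate. The other 7 did not pass the test. The share of receptors called was 20%, beside 28.6% of all tested genes. The BMP type I receptor *Bmpr1a* had -0.45 (adjusted p = 0.0675), its paralogue *Bmpr1b* had 0.78 (adjusted p = 0.0660; 1.11 and called with quantile normalization, 0.0241), and the type II receptor *Bmpr2* had -0.27 (adjusted p = 0.117). The activin-type receptors *Acvr1*, *Acvr1b*, *Acvr2a* and *Acvr2b* had -0.46, 0.30, 0.25 and 0.52, with adjusted p from 0.119 to 0.215. Without WT replicate 1, *Acvr1*, *Acvr1b*, *Acvr2b* and *Bmpr1a* were called too, at adjusted p from 0.0189 to 0.0450.

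Of the 8 Smads, which carry the signal from receptor to nucleus, 1 fell and 1 rose. The share of Smads called was 25%, beside 28.6% of all tested genes. *Smad9*, the least abundant of the BMP-activated Smads, had 390.1 and 249 normalized counts in WT and 94.0 and 121 in those labelled *Taf4a*-/-, which is 2.98-fold lower by mean (log2 difference -1.54, SE 0.29, adjusted p = 0.0143 from limma). *Smad7*, an inhibitory Smad that is itself induced by TGF-β, had 1505 and 1392 in WT and 1917 and 2075 in those labelled *Taf4a*-/- (log2 difference 0.46, SE 0.12, adjusted p = 0.0351). The call of *Smad9* held in every refit, whereas that of *Smad7* was lost without WT replicate 2 (adjusted p = 0.0764) and without replicate 1 or 2 labelled *Taf4a*-/- (0.155 and 0.264). With every library kept, the call of *Smad7* was also lost with no variance trend and with a replicate block (adjusted p = 0.102 and 0.0641). The other 6 had log2 differences between -0.23 and 0.27, with standard errors from 0.11 to 0.20. These were the BMP-activated *Smad1* (0.01) and *Smad5* (-0.09), the activin- and TGF-β-activated *Smad2* (-0.23) and *Smad3* (0.18), the shared *Smad4* (0.12) and the inhibitory *Smad6* (0.27). *Smad6* was called higher without WT replicate 1 (0.57, adjusted p = 0.0235) and had -0.017 without WT replicate 2.

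Of the genes grouped as secreted antagonists and matrix regulators 2 of 6 fell and none rose. The share called was 33.3%, beside 28.6% of all tested genes. The log2 difference was negative for all 6, although that of *Chrd* turned to 0.0029 with quantile normalization. The group leaves out the secreted antagonists *Lefty1* and *Lefty2*, which were counted with the ligands and were higher (2.08 and 2.06). *Grem1*, or gremlin, which binds BMP2, BMP4 and BMP7, had 152 and 79.0 normalized counts in WT and 16.6 and 13.3 in those labelled *Taf4a*-/- (7.71-fold lower by mean, log2 difference -2.80, SE 0.43, adjusted p = 0.00774 from limma). *Nog*, or noggin, another BMP antagonist, had 211 and 202 in WT and 130.2 and 88.5 in those labelled *Taf4a*-/- (log2 difference -0.94, SE 0.27, adjusted p = 0.0455). *Fst*, or follistatin, which sequesters activin, had 653 and 1137 in WT and 477 and 205 in those labelled *Taf4a*-/-. Its genotypes were separate, with a log2 difference of -1.46 (SE 0.44), but it missed the threshold (adjusted p = 0.0518). Whether *Nog* and *Fst* were called turned on the processing and on single libraries. With every library kept, *Nog* was lost with no filter, equal totals, quantile normalization, no variance trend, a replicate block and voom (adjusted p from 0.0525 to 0.121). *Fst* was called with a pseudocount of 10 (adjusted p = 0.0478). *Nog* was lost without WT replicate 1 or 2 (adjusted p = 0.124 and 0.138) or the replicate 2 labelled *Taf4a*-/- (0.244), and *Fst* was called without the replicate 1 labelled *Taf4a*-/- (-2.07, adjusted p = 0.00180). *Fst* had -0.85 without the replicate 2 labelled *Taf4a*-/- (adjusted p = 0.106) and -1.06 without WT replicate 2 (0.263). The BMP antagonist *Chrd* (chordin) had -0.34 (adjusted p = 0.336), and *Ltbp1*, which anchors latent TGF-β in the matrix, had -0.23 (adjusted p = 0.229). *Cer1*, an antagonist of Nodal and BMP made by the anterior visceral endoderm, is singled out after its values were seen. The WT libraries held 151 (replicate 1) and 17.7 (replicate 2) normalized counts, the widest WT spread of the 49 genes at 8.54-fold, and those labelled *Taf4a*-/- held 46.0 and 27.6. Its log2 difference was -0.54 (SE 0.94, adjusted p = 0.694) and went from 0.98 without WT replicate 1 to -2.05 without WT replicate 2.

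The *Id* genes, whose products block basic helix-loop-helix factors and which BMP signals induce, did not move as one. *Id1* had 1922 and 1553 normalized counts in WT and 2623 and 2327 in those labelled *Taf4a*-/- (log2 difference 0.52, SE 0.15, adjusted p = 0.0461 from limma), and so was higher. *Id2* was lower, with 4298 and 3829.9 in WT and 2885 and 3137 in those labelled *Taf4a*-/- (log2 difference -0.43, SE 0.12, adjusted p = 0.0442). *Id3* had 0.75 (SE 0.23, adjusted p = 0.0545) and *Id4* had -0.68 (SE 0.26, adjusted p = 0.102), neither past the threshold. All 4 genes were separate between genotypes, 2 in each direction, where 71.1% of all tested genes were separate. The 2 calls were close to the threshold: that of *Id1* was lost without WT replicate 2 (adjusted p = 0.112) or replicate 1 or 2 labelled *Taf4a*-/- (0.261 and 0.115), and that of *Id2* without any 1 of the 4 libraries (from 0.0544 to 0.317). *Id3* had a log2 difference of 1.08 without WT replicate 1. With every library kept, *Id3* was called with a replicate block (adjusted p = 0.0235). The call of *Id2* was lost with no filter, equal totals, no variance trend, a replicate block and voom (adjusted p from 0.0578 to 0.124). That of *Id1* was lost with no filter and with no variance trend (0.0575 and 0.126).

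When counts were divided by the length of exon, levels could be set against each other. In WT, *Id2* was the most abundant of the 50 genes at 3199.8 normalized counts per kb, followed by *Id1* (1498), *Bmpr1a* (1332), *Id3* (1263) and *Smad4* (1122). *Id2* stood apart in both WT libraries, whereas each of the next 4 overlapped its neighbour in this order over the 2 WT libraries. The most abundant ligands in WT were *Tgfb1* (722), *Bmp4* (707) and *Tgfb2* (707), which did not differ beyond their spread. In the libraries labelled *Taf4a*-/- these levels per kb were 447, 674 and 393, so that *Bmp4* stood first among these 3. *Tgfb3* went from a level of 539 to 102 per kb. *Nodal*, *Lefty1* and *Lefty2* had similar levels in WT of 123, 106 and 102 per kb, and 296, 385 and 343 in those labelled *Taf4a*-/-. *Gdf10* had a level of 196 per kb in WT and 20.1 in those labelled *Taf4a*-/-, *Inhba* 52.5 and 6.10, and *Grem1* 27.8 and 3.61.

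**Figure D4:**
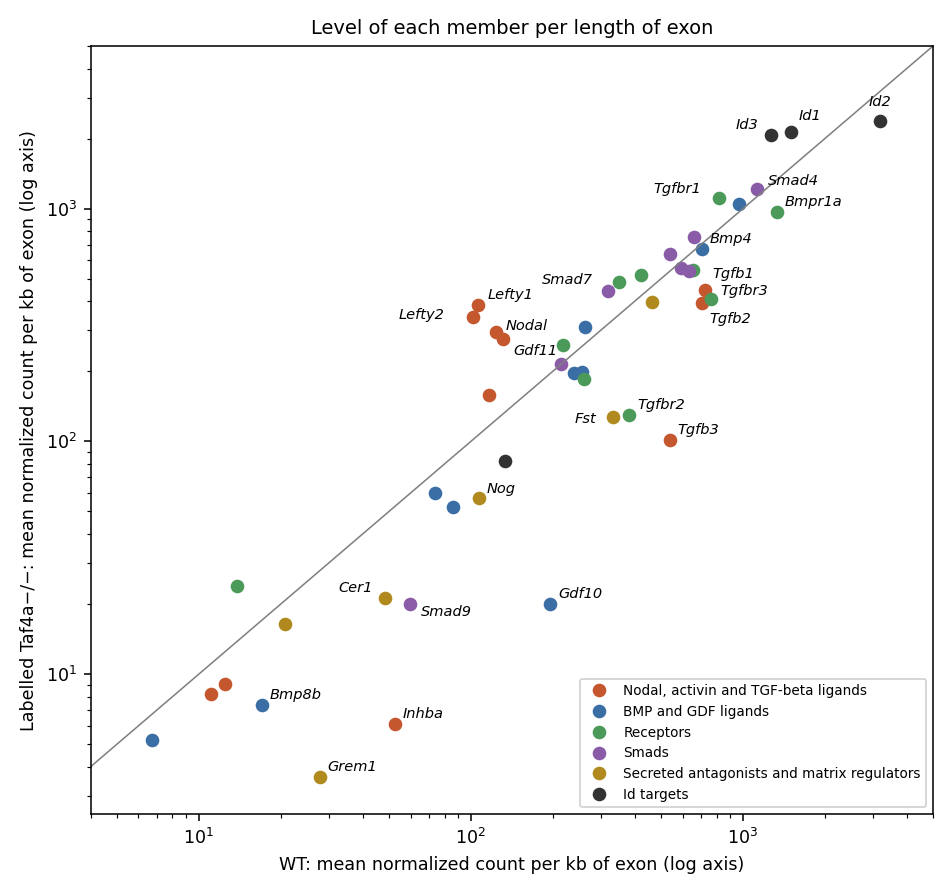
Mean normalized count per kb of exon in WT (horizontal, log axis) against those labelled *Taf4a*-/- (vertical, log axis), 1 point per gene with colours for the roles and the line of equality. *Nodal*, *Lefty1*, *Lefty2* and *Gdf11* lie above the line, *Tgfb3*, *Gdf10*, *Inhba* and *Grem1* lie far below it, and most receptors and Smads lie along it; *Gdf5*, at 0 in WT, cannot be drawn on a log axis.

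A second list held 67 further genes of the pathway, and of the 66 tested 5 rose and 20 fell, with a median log2 difference of -0.39. These are 7.58% and 30.3% of them, beside 11.3% higher and 17.3% lower among all genes tested, against which the counts of its sublists are also to be read. Nodal co-receptors and mediators included most of the rises. *Gdf3*, a Nodal-related ligand of pluripotent cells, had 63.1 and 64.4 normalized counts in WT and 231 and 285 in those labelled *Taf4a*-/- (log2 difference 1.99, SE 0.24, adjusted p = 0.00396 from limma). *Tdgf1*, the Nodal co-receptor Cripto, had 1257 and 302 in WT and 2045 and 2624 in those labelled *Taf4a*-/-, and did not pass (1.91, SE 0.60, adjusted p = 0.0600). *Foxh1*, the transcription factor that brings Smad2 and Smad3 to Nodal targets, had 479.6 and 117 in WT and 735 and 678 in those labelled *Taf4a*-/- (1.57, SE 0.60, adjusted p = 0.0974). For *Tdgf1* and *Foxh1*, as for *Nodal* and the *Lefty* genes, WT replicate 1 was the higher WT library, and without it both were called (2.93 at an adjusted p of 0.0146 and 2.58 at 0.0144). Without WT replicate 2 they had 0.88 (adjusted p = 0.0627) and 0.56 (0.0711). *Tdgf1* had 2.09 without the replicate 1 labelled *Taf4a*-/-. With every library kept, *Tdgf1* was called with a replicate block and with voom (adjusted p = 0.0411 and 0.0495), and *Foxh1* with a replicate block (0.0436). Of 11 co-receptors and mediators 3 rose and 2 fell. Of 7 Nodal targets none rose and 1 fell, which was *Foxa2* (-1.07, SE 0.24, adjusted p = 0.0231), a factor of the endoderm and node. The median log2 difference of these 7 was nevertheless 1.18. *T*, *Mixl1* and *Eomes*, transcription factors of the primitive streak and early mesoderm, had 2.46, 1.98 and 1.68 and did not pass (adjusted p = 0.148, 0.0951 and 0.0967). Their genotypes were separate, as were those of 71.1% of all tested genes. *T*, *Mixl1* and *Eomes* are named after their values were seen. The call of *Foxa2* was lost without WT replicate 1 or 2 (adjusted p = 0.0768 and 0.117) or the replicate 2 labelled *Taf4a*-/- (0.0822).

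Of 17 further antagonists and matrix regulators, 10 fell and none rose, with a median log2 difference of -1.65. *Dcn*, the matrix proteoglycan decorin, which binds TGF-β, went from 7644 and 10625 normalized counts in WT to 302 and 436 in those labelled *Taf4a*-/- (-4.63, SE 0.23, adjusted p = 0.000556 from limma). *Lrrc32*, which docks latent TGF-β at the cell surface, had -3.19, and *Ltbp3* and *Ltbp4*, which hold it in the matrix, had -1.92 and -1.65. The BMP antagonists *Sostdc1* and *Bmper* had -3.78 and -2.10, the secreted protease *Htra1* had -1.97 and the follistatin-like *Fstl1* had -1.53. The call of *Sostdc1* was lost without WT replicate 1 or 2 (adjusted p = 0.100 and 0.107). It had 0.979 and 9.95 normalized counts in the libraries labelled *Taf4a*-/-, and its log2 difference was -2.55 without replicate 1 of these, -5.02 without replicate 2 and -2.31 with a pseudocount of 10. These falls came with those of the fibroblast and mesenchyme markers, of which *Dcn* is one, and the part of that cell type in them was not tested. Of 15 targets of TGF-β and BMP, 5 fell and 1 rose. *Col1a1*, the collagen I chain, had -3.33, the matrix protein *Tgfbi* -1.28, the cardiac and vascular repressor *Hey1* -1.24 and smooth muscle actin *Acta2* -1.14. Without the replicate 1 labelled *Taf4a*-/-, neither *Hey1* nor *Acta2* was called (adjusted p = 0.0567 and 0.0516); *Hey1* was also lost without WT replicate 2 (0.103) and *Acta2* without the replicate 2 labelled *Taf4a*-/- (0.0599), and *Acta2* had -0.75 without WT replicate 2. *Msx1*, a BMP-induced homeobox gene, was the target that rose, with 849.5 and 166 normalized counts in WT and 1824 and 2239.6 in those labelled *Taf4a*-/- (2.42, SE 0.68, adjusted p = 0.0444), and had 1.25 without WT replicate 2. Other receptors had 1 fall among 6 tested, and of 10 intracellular regulators 1 rose and 1 fell. Of the 66 genes, 14 rose without WT replicate 1 and 4 or 5 without any other library.

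Across the refits of the 49 tested genes, 9 of the 18 calls were made under each of 12 refits with other pseudocounts, filters, scalings, variance models or fewer libraries. They were *Tgfb2*, *Tgfb3*, *Inhba*, *Gdf10*, *Tgfbr2*, *Tgfbr3*, *Smad9* and *Grem1*, which fell, and *Gdf11*, which rose. A fit with no variance trend lost 8 calls, those of *Nodal*, *Lefty1*, *Lefty2*, *Tgfb1*, *Smad7*, *Nog*, *Id1* and *Id2*. The number called higher moved from 6 to 10 without WT replicate 1, to 3 without WT replicate 2, and to 3 and 2 without replicates 1 and 2 labelled *Taf4a*-/-. Lower calls numbered 8 to 11 in the same refits.

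**Figure D5:**
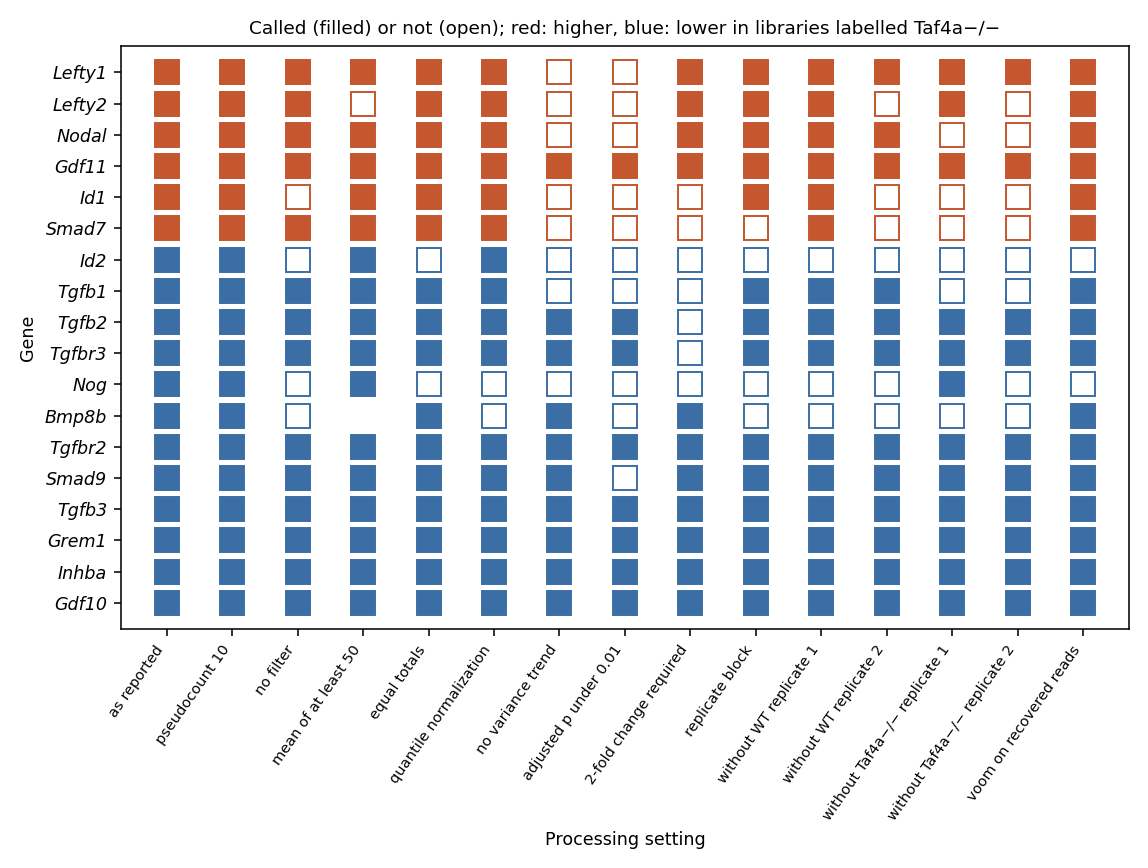
Calls of the 18 genes under the reported fit and 14 alternative settings (columns), with rows for genes; filled squares are called, open ones are not, red stands for higher and blue for lower, and the gap is *Bmp8b*, not tested at a minimum mean of 50. The lower calls of *Tgfb3*, *Inhba*, *Gdf10*, *Tgfbr2* and *Grem1* and the higher call of *Gdf11* are present in every column, and the calls of *Bmp8b*, *Nog* and *Id2* are absent from the most.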

How the data were processed

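RNA-seq libraries had been made with an unstranded polyA kit (TruSeq RNA v2). Per the labels and the paper's methods, the authors processed the reads with CASAVA 1.8, mapped them to mm9/NCBI37 with TopHat 1.3.3, counted them per gene with HTSeq 0.5.3p1 and deposited counts divided by 1 size factor per library from DESeq, as the processing notes name it (the paper's methods name DESeq 2); versions are those of the submitters' processing notes, and the annotation release is not given in the sources used here. These deposited values (unit "other", since they use decimal commas) were whole multiples of a library's smallest value (tolerance 0.01), so each read total could be recovered. All 24637 identifiers were found in the NCBIM37 annotation, from which exon lengths, coordinates and upstream windows were read.

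Genes with a mean of at least 10 (16926) entered a linear model in limma 3.58.1 under R 4.3.3 (lmFit, eBayes with a variance trend, two-sided) on log2(normalized count + 1), with Benjamini-Hochberg adjustment over all of them and 4.17 prior degrees of freedom; a gene was called at an adjusted p under 0.05. The test was tried on simulated reads with the same dispersion, a measure of spread beyond counting error, of 0.01 for every gene and both genotypes. That setting lacks the unequal spread between replicates given below, so the trial cannot show how the test performs under it. A floor of 3 reads per library stood for values of 0. Replicates of a genotype differed by more than sampling noise (chi-square per degree of freedom 48.0 for WT and 13.4 for the libraries labelled *Taf4a*-/-). Every gene of the list is named; library values are given for those called or, uncalled, with a log2 difference of 1 or more in size. Of the further pathway genes, those called with such a size, and *Gdf3*, *Tdgf1* and *Foxh1*, are named, except 1 that is not reported here. The members and lists were chosen with earlier results of these data known. Alternatives were other pseudocounts, filters, scalings, variance models and thresholds, a replicate block, and fits that left out 1 library; voom, also from limma, was run on recovered reads as an alternative chosen after seeing the data. Plots were made in Python 3.11.15 (matplotlib 3.10.9).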

Additional observations from a re-analysis of the deposited data

How the results depend on the processing

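The number of signalling genes called higher was 6 as reported and 1 both without a variance trend and at an adjusted p under 0.01, and ranged from 2 to 10 when 1 library was left out. The number called lower was 12, and 7 at an adjusted p under 0.01 and 7 with a 2-fold change required, and 8 to 11 when 1 library was left out. Of the further pathway genes 5 were higher, but 2 without a variance trend, 1 at an adjusted p under 0.01 and 2 with a 2-fold change required (4 to 14 when 1 library was left out), and 20 were lower, but 9 without a variance trend and 9 at an adjusted p under 0.01 (13 to 22). Over all genes 1906 were higher and 2928 lower; without a variance trend 856 and 1741, at an adjusted p under 0.01 there were 331 and 1119, and where a 2-fold change was required 747 and 1936. Leaving out 1 library gave 624 to 2476 higher and 1222 to 3038 lower. Quantile normalization gave 2676 higher and 2448 lower and put the median of all genes at 0.11 on the log2 scale; equal totals gave 2175 and 2697, and voom 2134 and 2580. The cause of these moves was not tested, except that a stricter threshold calls fewer genes by construction.

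Replicate numbers were shared by the genotypes, but no label ties them to a common origin. The deviations of same-numbered libraries had a correlation of 0.012 across genes. With 2 pairs this cannot show that the numbers carry nothing shared, and the Y-linked *Eif2s3y* was listed at 0 in replicate 2 of both genotypes only. With the replicate number as a block, 6 signalling genes were higher and 9 lower, 9 and 19 of the further pathway genes, and 1536 and 2657 of all genes.

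Among the 49 genes, quantile normalization turned the direction of *Bmp5* (0.10), *Bmp8a* (0.037) and *Chrd* (0.0029), none of them called. Leaving out 1 library turned that of 12 uncalled genes, whose log2 differences ranged from -1.06 to 0.024 for *Inhbb*, -1.78 to 0.38 for *Gdf15*, -0.12 to 0.40 for *Bmp1*, -0.19 to 0.059 for *Bmp4*, -0.82 to 0.49 for *Bmp5*, -0.76 to 0.22 for *Bmp8a*, -0.050 to 0.59 for *Gdf6*, -0.062 to 0.086 for *Smad1*, -0.0061 to 0.24 for *Smad4*, -0.19 to 0.014 for *Smad5*, -0.017 to 0.57 for *Smad6* and -2.05 to 0.98 for *Cer1*. Direction was kept by all 18 called genes under every setting run. The edgeR and DESeq2 fits that had been planned on the recovered reads were not run, and the planned TMM scaling was replaced by equal totals. With 1 library of a genotype left, that library is assumed to vary like the others. With 2 lines a genotype, replicates taken over all genes differed by more than counting error, and intervals over replicates rest on the spread shared across genes. For genes with few reads, depth is a limit too. In replicates 1 and 2 labelled *Taf4a*-/-, *Inhba* had 10 and 13 reads and *Grem1* had 17 and 12.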
